A study of Mus musculus with 9 samples.

Results

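DNA transposon relics are the remains of elements that once moved as DNA, and here they are the repeat subfamilies whose names begin with Charlie, Tigger, Cheshire, Zaphod, Looper, Arthur, Kanga, URR, Ricksha, FordPrefect or hAT. The names alone chose them. They make up 96 of the 1146 subfamilies counted. The RNA came from satellite cells, which are muscle stem cells, taken from hindlimb muscles of mice aged 9 weeks and grown for 3 days in culture. The 3 Mutant libraries are from Uhrf1-deficient mice treated with tamoxifen (150 µl of 20 mg/ml into the peritoneum on 5 days), and the 3 Control libraries are from mice treated with oil. Treatment and loss of Uhrf1 therefore cannot be told apart in this comparison. The series also has 3 Cre Control libraries from tamoxifen-treated mice, which were not analysed here because the repeat counts name none of them. Neither the promoter that drives Cre nor the Uhrf1 alleles are given in the labels, and they do not tell whether each library is another animal. The p-values therefore measure the spread between libraries only, part or all of which may be technical.

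A DNA transposon moves by a cut-and-paste reaction carried out by its own transposase, and unlike a retrotransposon it makes no RNA copy on the way to a new site. In the mouse these families have long lost the ability to move, and their fragments lie scattered within introns and between genes, where they can be read as part of a longer transcript. Charlie, Cheshire, URR, Zaphod, Arthur and FordPrefect belong to the hAT superfamily. Tigger and Kanga belong to the Tc1/mariner superfamily, Looper to piggyBac and Ricksha to MULE. Uhrf1 brings the maintenance methyltransferase Dnmt1 to replicated DNA, and DNA methylation is best known for silencing young retrotransposons such as the intracisternal A particles (IAP). No consensus sequence or position of these subfamilies was used here.

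The libraries held 1794698 to 2245124 repeat counts each. In the authors' deposited gene table, Uhrf1 had a mean of 20.4 TPM in Mutant and 118 TPM in Control, and the myogenic genes Pax7 (29.6 TPM in Mutant and 23.1 TPM in Control) and Myod1 (914 TPM in Mutant and 1018 TPM in Control) were expressed in both groups. Values of these genes in single libraries were not analysed here. The library labelled Control 3 stood apart from the other Control libraries in its IAP counts. The 25 IAP subfamilies took 10.6%, 12.7% and 18.4% of repeat counts in Mutant 1, 2 and 3, against 0.800%, 0.991% and 15.0% in Control 1, 2 and 3. Counts of calls and the fold changes that moved most are given with and without Control 3. Levels are CPM (counts scaled to a common repeat total) with TMM factors, a scaling that sets libraries to a common level over the bulk of subfamilies. They are relative to the repeat counts and given per subfamily, neither per copy nor per length, and with bulk RNA fewer cells of a type and less RNA per cell cannot be told apart.

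Apart from 1 subfamily, the summed level of the DNA transposon relics was nearly the same in Mutant and Control libraries. Setting aside FordPrefect, which alone held 76.9% of the counts of the 96 subfamilies, the other 95 summed to 17771, 17778 and 17613 CPM in Mutant 1, 2 and 3, against 18014, 17964 and 18044 CPM in Control 1, 2 and 3. Their means were 17721 ± 93.2 CPM in Mutant and 18007 ± 40.7 CPM in Control (SD, n = 3 each), a ratio of 0.984. The groups did not overlap, yet the gap was small, and Control 3 lay with the other Control libraries. A few rows carried much of this sum. The 2 URR subfamilies alone gave 7765, 7628 and 7507 CPM of it in Mutant, against 7851, 7742 and 7826 CPM in Control. The flat sum therefore does not describe each subfamily, and log2 fold changes of single relics ran from -0.61 to 0.58 with 6 libraries. With FordPrefect included, the sums were 75978, 90266 and 85555 CPM in Mutant, against 69539, 66161 and 82172 CPM in Control 1, 2 and 3, where Control 3 lay within the Mutant range. As plain shares of repeat counts the 95 subfamilies other than FordPrefect took 1.77%, 1.66% and 1.55% in Mutant, against 2.06%, 2.06% and 1.68% in Control 1, 2 and 3. On that scale Control 3 fell inside the Mutant range, and the 4 libraries with IAP shares of 10.6% or more all had lower relic shares than Control 1 and Control 2. The part of the IAP counts in this was not tested.

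Other old repeats showed a similar flatness after TMM scaling, while the IAP elements did not. TMM sets libraries level over the bulk of subfamilies, and how much of this flatness it sets was not tested. A list of 60 other DNA transposons, mostly named MER, summed to 16417 ± 425 CPM in Mutant and 16552 ± 99.1 CPM in Control (SD, n = 3 each), a ratio of 0.992. The 10 ancient L2, L3 and MIR elements summed to 53823 ± 1849 CPM in Mutant and 52697 ± 1152 CPM in Control (SD, n = 3 each), a ratio of 1.02. As plain shares of repeat counts neither list was flat. The other DNA transposons took 1.59%, 1.54% and 1.47% in Mutant, against 1.89%, 1.89% and 1.55% in Control 1, 2 and 3. The L2, L3 and MIR elements took 5.16%, 5.07% and 4.86% in Mutant, against 5.94%, 5.999% and 5.03% in Control 1, 2 and 3. For both lists Control 3 fell inside the Mutant range, as it did for the relics. The 25 IAP subfamilies summed to 106623, 136176 and 210056 CPM in Mutant, against 6987, 8630 and 160385 CPM in Control 1, 2 and 3. Mutant libraries and Control 3 were thus high in IAP, and Control 1 and Control 2 low. No test of a difference between these lists was made.

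**Figure D1:**
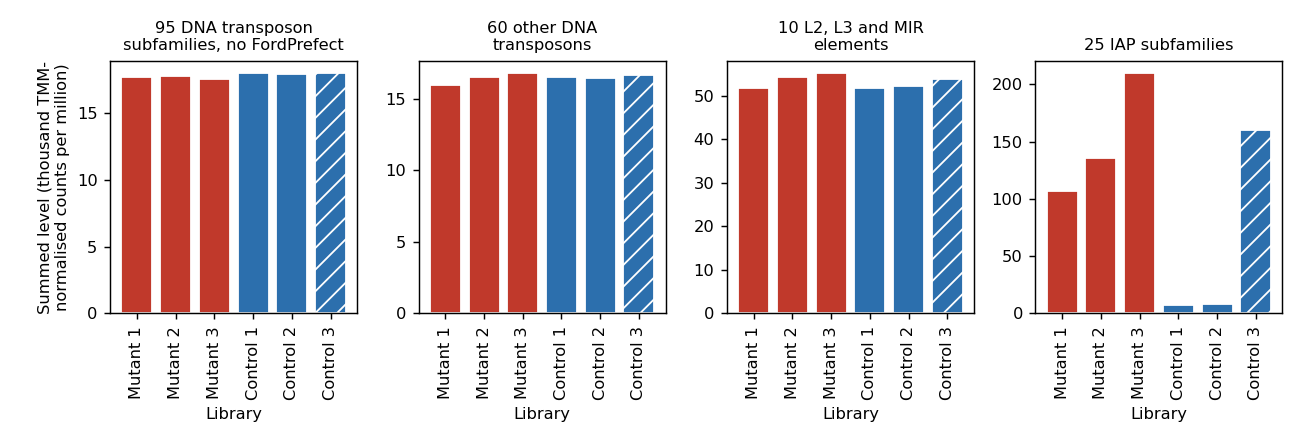
Summed TMM-normalised CPM (divided by 1000, linear axis from 0) of 4 lists of repeats in each library, with Mutant in red, Control in blue and Control 3 hatched. After this scaling the first 3 lists stand at nearly the same height in all 6 libraries. The IAP bars are low in Control 1 and Control 2 alone.

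Some rows had hardly any reads. Of the 96 subfamilies, 89 passed the filter on low counts and were tested, and 7 did not. The untested rows were FordPrefect_a, Ricksha_a, Ricksha_b, Cheshire_Mars, Cheshire_Mars_, Charlie1b_Mars and Tigger1a_Mars, and all but FordPrefect_a and Cheshire_Mars are named here because of their low counts. Tigger1a_Mars had 0 counts in all 6 libraries. Charlie1b_Mars had 0 counts in each Mutant library, against 4, 2 and 1 counts in Control 1, 2 and 3. Such counts are too few to compare. FordPrefect_a had 6, 4 and 8 counts in Mutant, against 9, 6 and 5 in Control, although FordPrefect itself was among the most counted rows of all. The middle of the list was thinly covered too, with a median of 92.3 mean counts per library over the 96 rows and 26 rows under 50. Only 6 rows reached a mean of 1000 counts: FordPrefect, URR1B, URR1A, Tigger7, Charlie5 and Charlie1a.

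None of the tested relics passed between Mutant and Control with all 6 libraries in edgeR's quasi-likelihood test at an adjusted p below 0.05. The count was 0 of 89, and 0.0% of the 984 subfamilies tested were called (0 of 984). At an unadjusted p below 0.05 there were 9 relics, beside 11.3% of all subfamilies. DESeq2 called 0 relics and 16 of all subfamilies (1.63%). Without Control 3, edgeR called 2 of the 89 relics, FordPrefect higher and Tigger5 lower, where it called 7.42% of all subfamilies, 7.01% as higher and 0.407% as lower. DESeq2 without Control 3 called 1 relic, FordPrefect, and 6.61% of all subfamilies, 6.3% as higher. With edgeR without Control 3, 14 of the 89 had an unadjusted p below 0.05 beside 21.0% of all subfamilies. Scaling to plain repeat totals without Control 3 changed this picture for relics and other repeats alike: 36 of the 89 relics were then called lower and 0 higher, where 44.7% of all subfamilies were called, 40.8% as lower and 3.96% as higher. That scaling moved the median log2 fold change to -0.32 for the relics and to -0.29 for all subfamilies. The median log2 fold change (Mutant over Control) of the 89 was -0.04 with 6 libraries and -0.03 without Control 3, beside -0.0026 and 0.0046 over all 984. Of the 89, 33 had a positive fold change with 6 libraries, against 482 of 984, and the median standard error (SE) was 0.14.

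How closely each fold change was estimated is given by the intervals, which are per row and not adjusted for the number of rows. They do not give the smallest difference that could have been called. The 95% interval of the log2 fold change lay within 1 either side of 0 for 84 of the 89 relics, and within 0.5 for 47 of them, with 6 libraries. Without Control 3 these numbers were 83 and 46. The fold changes of both fits were close, with a median absolute difference of 0.05 and a largest one of 0.21 (Charlie13a, named here for that value), and the sign differed for 6 of the 89.

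**Figure D2:**
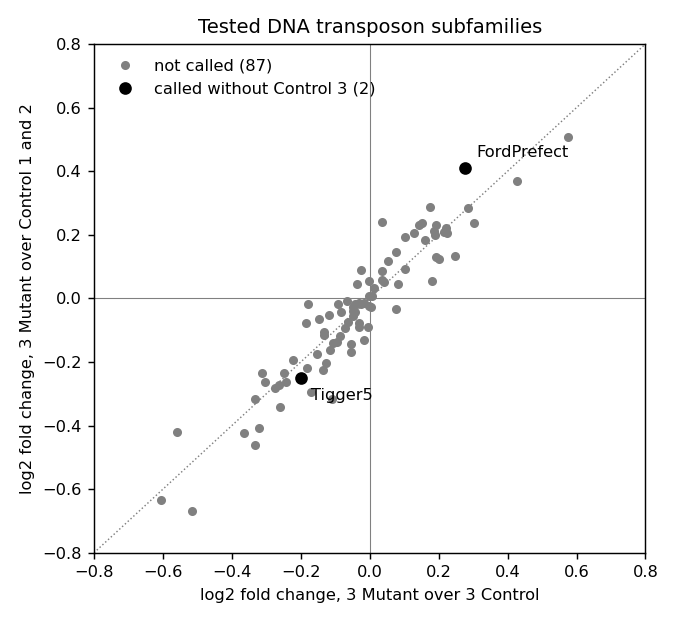
Log2 fold change of each of the 89 tested relics, with all 6 libraries (horizontal axis) and without Control 3 (vertical axis); the dotted line marks equal values. The points follow the line, and FordPrefect and Tigger5 are those called without Control 3.

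FordPrefect was the outstanding row. Its counts placed it 2nd among all 1146 subfamilies, 14.7 times above URR1B, the relic that follows it. It stood at 58206, 72487 and 67941 CPM in Mutant 1, 2 and 3, against 51525, 48197 and 64128 CPM in Control 1, 2 and 3. All Mutant libraries were above Control 1 and Control 2, while Control 3 lay within the Mutant range. The means were 66212 ± 7296 CPM in Mutant and 54617 ± 8403 CPM in Control (SD, n = 3 each), a log2 fold change of 0.28 (SE 0.12; edgeR adjusted p = 0.419). Without Control 3 FordPrefect rose by 0.41 on the log2 scale (SE 0.07; edgeR adjusted p = 0.00538). That call rests on the scaling as well as on the library left out. As a plain share of repeat counts FordPrefect took 5.80%, 6.75% and 5.97% in Mutant, against 5.90%, 5.53% and 5.98% in Control 1, 2 and 3. The Wilson 95% interval, which covers counting error only, was 5.77% to 5.84% in Mutant 1 and 5.87% to 5.94% in Control 1. With plain repeat totals in place of TMM factors and without Control 3, the log2 fold change of FordPrefect was 0.11 (SE 0.09; edgeR adjusted p = 0.34).

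Tigger5, a Tc1/mariner relic, had the opposite direction. It stood at 287, 277 and 266 CPM in Mutant, against 324, 334 and 295 CPM in Control 1, 2 and 3. Every Mutant library was below every Control library, with Control 3 the nearest to them. Tigger5 averaged 277 ± 10.4 CPM in Mutant and 318 ± 20.1 CPM in Control (SD, n = 3 each), with a log2 fold change of -0.20 (SE 0.06; edgeR adjusted p = 0.33). Without Control 3 it fell by 0.25 on the log2 scale (SE 0.06; edgeR adjusted p = 0.0412), but DESeq2 on the same 5 libraries gave an adjusted p of 0.0795. Its share of repeat counts was 0.0286%, 0.0258% and 0.0234% in Mutant, against 0.0371%, 0.0384% and 0.0275% in Control 1, 2 and 3, so that Mutant 1 was above Control 3 and the groups overlapped on that scale.

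**Figure D3:**
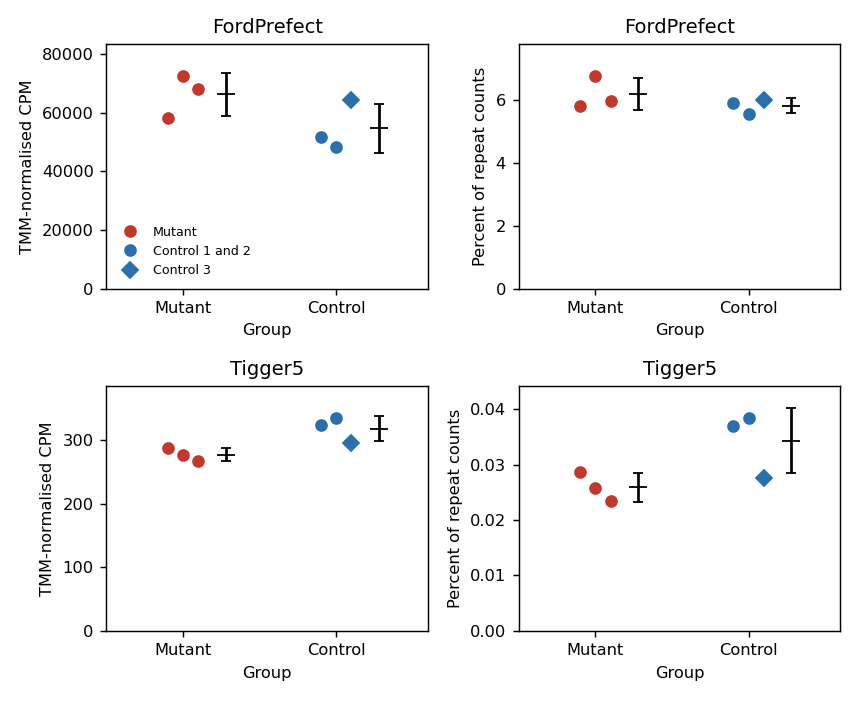
FordPrefect (top) and Tigger5 (bottom) in each library, as TMM-normalised CPM (left) and as percent of all repeat counts (right), with the mean and SD of 3 libraries beside the points; all axes start at 0. For FordPrefect the groups overlap on both scales with Control 3 (diamond) among the Mutant libraries on the left, and on the right Control 1 and Control 3 both do so. For Tigger5 the groups are separate on the left and overlap on the right, where Control 3 is below Mutant 1.

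Among the hAT relics, the rodent URR1 pair came next in level. URR1B stood at 4035, 4025 and 3979 CPM in Mutant, against 4083, 4043 and 4117 CPM in Control 1, 2 and 3 (log2 fold change -0.02, SE 0.03; edgeR adjusted p = 0.759). The Mutant libraries were all below the Control libraries, though they nearly coincide with them in the plot of levels by family. URR1A stood at 3731, 3603 and 3528 CPM in Mutant, against 3768, 3699 and 3710 CPM in Control (log2 fold change -0.04, SE 0.03; edgeR adjusted p = 0.638).

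The Charlie name family was the largest, with 39 subfamilies and 38 tested. Their log2 fold changes ran from -0.61 to 0.58 with a median of -0.05, and 14 were positive. Without Control 3 the median was -0.03 and 16 were positive. Charlie5, the Charlie relic with the highest level, stood at 927, 1089 and 1094 CPM in Mutant, against 900, 861 and 1041 CPM in Control 1, 2 and 3. As with FordPrefect, Control 3 was inside the Mutant range (log2 fold change 0.15, SE 0.09, and 0.24, SE 0.07, without Control 3; edgeR adjusted p = 0.558 and 0.0886), and without Control 2 the log2 fold change was 0.10. Charlie1a had 808, 731 and 724 CPM in Mutant, against 848, 811 and 758 CPM in Control, with overlapping groups.

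The extremes of the Charlie family lay at low counts. Charlie14a, with the lowest fold change of all tested relics, had 6, 13 and 14 counts in Mutant, against 18, 24 and 16 in Control (log2 fold change -0.61, SE 0.31; edgeR adjusted p = 0.471). Charlie11, with the highest, had 23, 19 and 19 counts in Mutant, against 14, 21 and 12 in Control, and its levels did not overlap after scaling (log2 fold change 0.58, SE 0.22; edgeR adjusted p = 0.419). Charlie10b (-0.56, SE 0.32), Charlie13b (-0.52, SE 0.26) and Charlie15b (-0.37, SE 0.12) followed at the low end on the log2 scale. At the high end came Charlie26a (0.43, SE 0.15) and Charlie17 (0.28, SE 0.13), also as log2 fold changes. Charlie15b had the most reads of these, with 61.8, 51.7 and 49.8 CPM in Mutant, against 69.1, 76.4 and 64.2 CPM in Control. None of the 7 passed, and they are the ends of a ranking over 89 values. Single libraries moved several of them: the log2 fold change was -0.30 for Charlie14a and -0.35 for Charlie10b without Mutant 1, and -0.27 for Charlie13b without Control 2.

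Tigger relics are descendants of pogo-like elements. Of 29 subfamilies 28 were tested, with log2 fold changes from -0.33 to 0.30, a median of -0.02 and 12 positive values. Without Control 3 the range was -0.46 to 0.24, the median -0.05 and the number of positive values 11. Tigger7 stood at 1055, 1057 and 1049 CPM in Mutant, against 1101, 1121 and 1007 CPM in Control 1, 2 and 3, and Control 3 was here the lowest library. Tigger1 stood at 415, 465 and 452 CPM in Mutant, against 395, 375 and 449 CPM in Control. Again Control 3 lay within the Mutant range. The log2 fold change of Tigger1 was 0.13 (SE 0.08; edgeR adjusted p = 0.568) with 6 libraries, 0.21 (SE 0.07; edgeR adjusted p = 0.106) without Control 3 and 0.08 without Control 2. Tigger17 had the highest fold change of the family, at 82.3, 78.3 and 77.8 CPM in Mutant, against 64.7, 69.8 and 57.8 CPM in Control. Its groups did not overlap and the difference did not pass (log2 fold change 0.30, SE 0.10; edgeR adjusted p = 0.334). Tigger12c had the lowest, at 28.8, 18.3 and 16.8 CPM in Mutant, against 29.7, 29.1 and 21.2 CPM in Control. Its log2 fold change was -0.33 with 6 libraries, -0.61 without Mutant 1 and -0.18 without Mutant 3.

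The other small families, FordPrefect aside, gave no call with 6 libraries or without Control 3 under TMM scaling. Kanga, a Tc1/mariner group, had 7 tested subfamilies between -0.32 and 0.08 on the log2 fold change scale. Its leading member Kanga2_a stood at 130, 168 and 149 CPM in Mutant, against 141, 134 and 157 CPM in Control. Kanga1 followed with 84.9, 91.6 and 94.6 CPM in Mutant, against 85.6, 89.2 and 104 CPM in Control. Cheshire, of the hAT superfamily, had 266, 237 and 231 CPM in Mutant, against 276, 264 and 250 CPM in Control 1, 2 and 3. Mutant 2 and Mutant 3 were below every Control library and Mutant 1 was not, with a log2 fold change of -0.11 (SE 0.07; edgeR adjusted p = 0.595) that ran from -0.17 without Mutant 1 to -0.07 without Control 1. Looper, the piggyBac relic, had 66.6, 55.5 and 47.3 CPM in Mutant, against 68.6, 74.1 and 58.9 CPM in Control (log2 fold change -0.26, SE 0.15; edgeR adjusted p = 0.535). Leaving out Mutant 1 gave Looper a log2 fold change of -0.39, and leaving out Mutant 3 gave -0.14.

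Arthur1, Arthur1B, Zaphod and Zaphod2, all of the hAT superfamily, had log2 fold changes from -0.18 (Arthur1B) to 0.0063 (Zaphod2) with 6 libraries. These values rested on single libraries: Arthur1B was at -0.05 without Mutant 2 and -0.35 without Mutant 3, and Zaphod2 at -0.08 without Control 1 and 0.11 without Control 2. Ricksha_c had 35.6, 56.1 and 35.6 CPM in Mutant, against 36.5, 40.7 and 32.4 CPM in Control, with Mutant 2 above the other 5 libraries, and its log2 fold change was 0.20 with 6 libraries and -0.05 without Mutant 2. Ricksha had a log2 fold change of -0.02 (SE 0.14), which was 0.08 without Mutant 1 and -0.10 without Mutant 3. The row hAT-N1_Mam stood at 25.2, 23.9 and 31.5 CPM in Mutant, against 24.8, 24.4 and 21.2 CPM in Control. In each of these 7 rows the groups overlapped.

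**Figure D4:**
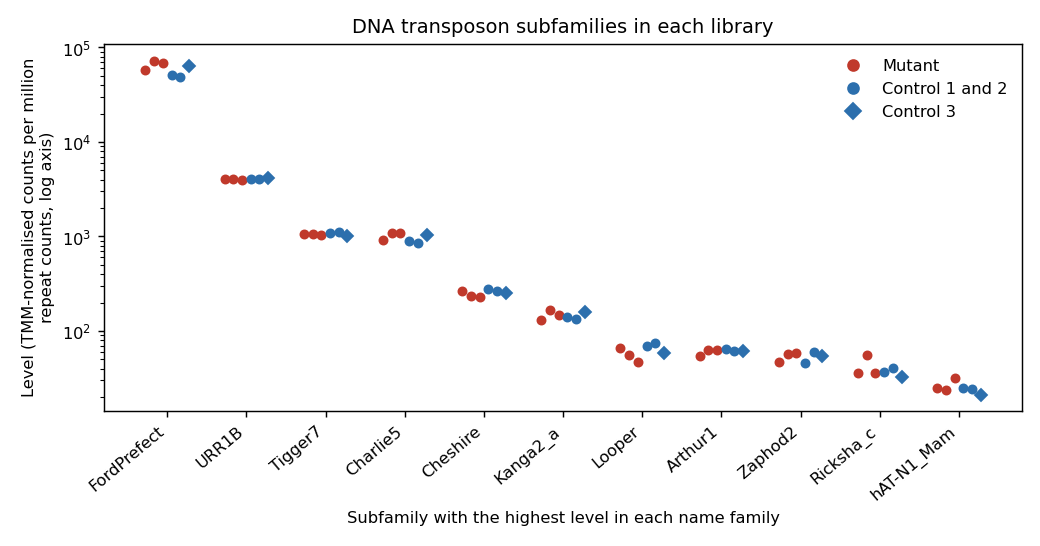
Level of the highest subfamily of each name family in the 6 libraries (log axis, TMM-normalised CPM), with Mutant in red, Control 1 and 2 as blue circles and Control 3 as blue diamonds. FordPrefect lies far above the rest, and within each family the 6 points sit close together.

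Groups separated fully for some relics. All 3 Mutant libraries were above all 3 Control libraries for 7 of the 89 relics, beside 8.54% of all subfamilies tested. They were below for 9 of the 89, beside 9.25%. Against Control 1 and Control 2 alone, 12 relics were higher in every Mutant library (21.3% of all subfamilies) and 18 lower (18.2%). No library was at an extreme for most relics. Control 3 was the highest of the 6 for 13 relics (14.6%, beside 16.7% of all subfamilies) and the lowest for 14 (15.7%, beside 14.2%). Mutant 3 was the lowest for 23 relics (25.8%, beside 19.6%).

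Libraries were next compared in pairs over the relics alone. The measure was a chi-square of raw counts per degree of freedom, which is near 1 where libraries differ by sampling only, over 80 relics with at least 20 counts in each library and without FordPrefect. It sets libraries against counting error only and takes reads as independent, which PCR copies are not, so it is used as a description. Control 1 and Control 2 gave 1.13 over these rows and 3.49 over all 857 subfamilies with that coverage, FordPrefect included. For the same relative difference the measure grows with the counts in a row. Its size over the relics and over all subfamilies is therefore not a like comparison. The values of the other pairs were higher. Mutant 2 and Mutant 3 gave 3.26 and 3.85 with Control 1 and 3.66 and 3.62 with Control 2, but 1.55 and 2.14 with Control 3. Control 3 gave 2.21 and 2.68 with Control 1 and Control 2. Mutant 1 was nearer to Control 1 and Control 2 (1.32 and 1.44) than to the other Mutant libraries (2.08 and 2.41). With Mutant 1, Control 3 gave 1.82. By this measure Control 3 lay closer to each Mutant library than to either other Control library. Mutant 1 lay closer to Control 1 and Control 2 than to the other Mutant libraries. Over all subfamilies the values were larger, from 3.49 to 533, and the order for Mutant 1 was the reverse: 17.7 with Mutant 2 and 70.1 with Mutant 3, against 230 with Control 1 and 258 with Control 2. Control 3 was there at 23.1 with Mutant 2, against 329 with Control 1 and 381 with Control 2. These values describe single libraries and carry no test of the groups.

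**Figure D5:**
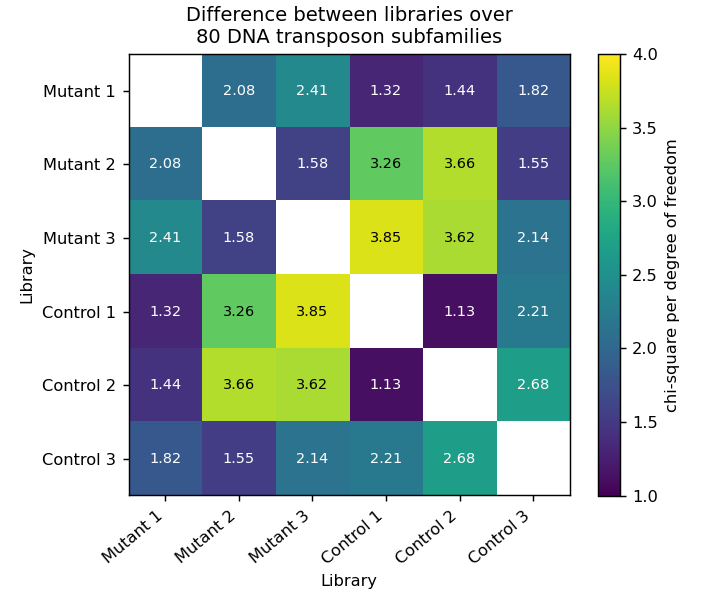
Chi-square per degree of freedom between each pair of libraries over 80 relics, FordPrefect left out, as printed in each cell and coloured from 1 (dark) to 4 (light). The palest cells join Mutant 2 and Mutant 3 with Control 1 and Control 2, and the darkest joins Control 1 and Control 2.

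The authors' deposited table of repeat comparisons lists 93 of the 96 relics. Its mean levels equalled those computed here from the 5 libraries without Control 3 within a relative difference of 1e-06 for all 1093 of its rows, and those from all 6 libraries for 0 rows. A single relic passed as higher and 0 as lower in the authors' deposited table, where 5.76% of all rows were called, 5.49% as higher and 0.274% as lower. The authors' deposited table gives FordPrefect a log2 fold change of 0.40 (SE 0.09, adjusted p = 0.000152). Tigger5 did not pass in the authors' deposited table (log2 fold change -0.25, SE 0.10, adjusted p = 0.102). Since the table has the same libraries as the fit without Control 3, it is no separate evidence for either subfamily.

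Host genes that descend from DNA transposases were looked up in the authors' deposited gene table. Of a list of 20 such genes 19 are listed, 4 fell and 0 rose, in a table where 17.1% of all genes were called, 8.11% as lower and 9.02% as higher in Mutant. Zbed4 (chr15:88751660-88784516, plus strand), a zinc finger gene of hAT origin, is given in the authors' deposited table with means of 21.7 TPM in Mutant and 28.03 TPM in Control (adjusted p = 9.49e-10). The authors' deposited table gives Pogz (chr3:94837567-94882326, plus strand), a pogo-derived gene whose product binds heterochromatin proteins, 29.0 TPM in Mutant and 35.3 TPM in Control (adjusted p = 0.0072). For Jrk (chr15:74702301-74709535, minus strand), of the same origin, the authors' deposited table has 4.796 TPM in Mutant and 6.68 TPM in Control (adjusted p = 0.00199). The last of the 4 in the authors' deposited table, Zbed6 (chr1:133655879-133660885, minus strand), a hAT-derived repressor of Igf2 in muscle, had 8.35 TPM in Mutant and 10.7 TPM in Control (adjusted p = 0.0377). Positions are those of the whole genes in GENCODE M21 (GRCm38). Zbed6 overlaps Zc3h11a and Gm38394 on the same strand there, so its reads are uncertain.

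In the authors' deposited gene table Cenpb, a pogo-derived gene whose product binds centromeric satellite DNA, had the highest level of the list, with 64.3 TPM in Mutant and 70.4 TPM in Control, and did not pass (adjusted p = 0.0795). Zbed3 in the authors' deposited table had 35.4 TPM in Mutant and 37.0 TPM in Control (adjusted p = 0.791). The median log2 fold change of the 19 genes was -0.13, against a median of 0.01 over every gene listed, by the authors' deposited table. That listed fold change is not the estimate behind the adjusted p, which is the score times its SE. For Zbed4 the listed value was -0.36 and the tested estimate -0.51. Gtf2ird2 differed in sign, at 0.07 listed and -0.22 tested. The number of libraries behind each of those means was not stated.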

How the data were processed

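Per the labels' protocols, RNA of the Control and Mutant cells was depleted of ribosomal RNA and sequenced from strand-specific paired libraries, after seeding at 5000 cells/cm2. Per the submitters' processing notes, the tools were STAR 2.7.6a, featureCounts 2.0.1, DESeq2 and Trim Galore 0.6.6, with GRCm38 and mm10 as builds. How repeats were annotated and how reads with several matches were counted was not stated there, and old, short copies may gain or lose reads by it. The authors deposited raw counts per repeat subfamily for 6 libraries. Per the file headers they also deposited comparison tables with log2 fold changes and their errors, a score (the test statistic), p-values, mean signal levels (normalised counts averaged over libraries) and, for genes, means whose column sums mark them as TPM. A further deposited comparison, PT against PUT, was not used here.

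The tests used edgeR 4.0.16 under R 4.3.3 (quasi-likelihood, TMM, filterByExpr, Benjamini-Hochberg over all 984 subfamilies tested, threshold 0.05). SE is the absolute log2 fold change over the root of F, and 95% intervals use the fit's t quantile. The fit without Control 3 kept the same 984 rows. Alternatives were DESeq2 1.42.0, other scalings, filters, each library left out and a replicate block. The fit was tested on simulated data, where changed subfamilies moved more than any tested relic did and no library stood apart. That test does not show whether changes of the size seen here could be found. The members and lists were chosen with earlier results of these data known. Named subfamilies are the 2 highest of each name family, the 5 highest and 5 lowest fold changes, and those called in either fit or by the authors. Named genes are those called and the 3 of highest mean. Intervals of shares (Wilson) leave out all but counting error, because reads amplified by PCR without identifiers are not separate molecules. Fits that join another tool or scaling with leaving out Control 3, and the sum without FordPrefect, were chosen after seeing the data.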

Additional observations from a re-analysis of the deposited data

How the results depend on the processing

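With 6 libraries, edgeR called 0 relics under every alternative, and 0 of all subfamilies except with plain repeat totals (6); DESeq2 called 16 of all and 0 relics. Leaving out each library in turn gave 0 to 73 subfamilies and 0 to 2 relics called, above 0 without Control 3 only. Without Control 3, all subfamilies and relics called were 65 and 1 with DESeq2, 70 and 2 with RLE factors, 73 and 2 with scaling without IAP, and 440 and 36 with plain totals. The median log2 fold change of the relics was -0.24 with plain totals (all subfamilies -0.20) and ran from -0.038 to -0.016 with a library left out. Without Control 3 it was -0.029 with DESeq2, -0.030 with RLE factors, -0.020 with scaling without IAP and -0.32 with plain totals. The log2 ratio of the summed level was 0.21, and 0.017 with plain totals, or 0.0095 without Control 3 as well. It ran from 0.15 to 0.31 with a library left out. Without FordPrefect that ratio was -0.023, and -0.22 with plain totals, -0.32 with plain totals and without Control 3, -0.016 with scaling without IAP and without Control 3, and -0.025 to -0.016 with a library left out. The causes were not tested. No direction of these summaries reversed.

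The replicate block gave 0 subfamilies and 0 relics called, with a median of -0.04. Deviations of same-numbered libraries correlated at 0.29, 0.071 and 0.28, and those of differently numbered ones at -0.29 to 0.16. For each Mutant library the same-numbered Control gave the highest value. The main fit took no pairing from the numbers, and whether they pair the libraries stays unsettled. Of 28 named relics tested, the stricter filter (a mean of 50 counts) left 23. Leaving out 1 library turned the sign of 1 to 3 of the 28 (3 without Mutant 1, 3 without Mutant 2, 2 without Control 2, and 1 without each of the others), and plain totals turned 6, or 8 without Control 3 as well. Depth limits the 26 relics under a mean of 50 counts.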

Other observations

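Chosen after its values were seen, the row FordPrefect was set beside the other subfamilies with a mean of at least 1000 counts, 198 rows in all, by the SD over the 6 libraries of the log2 ratio of raw counts. The row that followed it most closely was 7SK, the noncoding RNA that restrains the elongation factor P-TEFb, with an SD of 0.07. FordPrefect had 4.84, 4.83 and 4.71 times the counts of 7SK in Mutant 1, 2 and 3, against 4.95, 4.67 and 5.36 times in Control 1, 2 and 3. The satellite rows MMSAT4 and MurSatRep1 came next, with SDs of 0.08 each. The ratio to 7SK overlapped between the groups, and its cause was not tested.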
